A study of Labrus bergylta with 25 samples.

Results

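In Segment 1 of the gut of the ballan wrasse, 165 genes were expressed in nearly every RNA sequencing library and were listed at exactly 0 in 1, 2 or 3 of 25. They were chosen from the table of 20208 genes by 2 measured values, a median of at least 20 over the 25 libraries and a value of 0 in 1 to 3 of them, so neither the zeros nor the medians are findings in themselves. As 165 is under the 200 at which the selection would have been limited, every gene that met both conditions was kept. The treatment labels were not used in the choice. The values are reads counted on a gene, divided by 1 size factor per library.

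The ballan wrasse, Labrus bergylta, is a fish without a stomach, in which food passes from the oesophagus into a widened front part of the intestine, the bulbous or Segment 1. Intestines of juvenile farmed fish, all labelled female, were taken out whole, given a bolus and kept for 60 min in a glass tube with Ringer's solution at 14 °C. The bolus, of 0.1% of body weight, was hydrolyzed protein (casein digested with trypsin, 6 libraries), hydrolyzed lipid (cod liver oil digested with a lipase, 6 libraries) or cellulose, which the fish cannot digest (7 libraries), and 6 intestines were left empty. An isolated intestine has no blood supply and no connection to the central nervous system, which limits it as a model of the gut of a feeding fish. Each library came from its own RNA sample. The labels do not say more on how the samples of a treatment were taken. The paper counts 6 intestines each for protein, lipid and empty and 7 for cellulose, so p-values measure the spread between these intestines.

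The intestine wall is a mixture of absorptive cells, mucus cells, hormone-producing cells, muscle, nerves and blood cells, and a library made from pieces of the wall reads all of them at once. A value of 0 says that no read of that library was assigned to the gene, and not that the gene was silent in the tissue. In such samples fewer cells of a type and less RNA per cell cannot be told apart. The genes carry identifiers of the form LABE_00068288-RA, which the deposited values do not pair with names, and 0 of them matched the reference gene list of the species, so neither the roles of the selected genes nor the markers of the tissue could be examined.

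The libraries held from 10.2 to 31.6 M reads on the listed genes, with a median of 13.9 M. Over the whole table from 89 to 1003 genes were at 0 in a library. Of the 15860 genes with a median of at least 20, 15676 were above 0 in all 25 libraries, 165 were selected, and 19 were at 0 in 4 or more libraries. The selected genes were thus 1.04% of those with such a median, and they came mostly from its lower end. Their medians ran from 20.1 to 3399.5, with quartiles of 24.1, 31.9 and 48.3, and 126 of them (76.4%) had a median under 50, against 16.2% of all genes with a median of at least 20. Only 11 reached 100.

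At the edge of the selection, LABE_00087779-RA was the last gene inside, with a median of 20.1 and a 0 in protein library 11. The first gene outside by its median was LABE_00013841-RA, with 19.9 and a 0 in empty library 30. By the number of zeros the first one outside was LABE_00089314-RA, which had a median of 189 and was at 0 in 4 libraries. A further 9 genes, LABE_00089314-RA among them, had the median and exactly 4 zeros.

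Most of the selected genes were missing from 1 library only. There were 126 at 0 in 1 library, 26 in 2 and 13 in 3, which gave 217 zeros, or 5.26% of their 4125 values. The zeros were spread unevenly. Protein libraries held 25 of them (11.5%, Wilson 95% interval 7.93% to 16.5%), lipid libraries 36 (16.6%, 12.2% to 22.1%), cellulose libraries 58 (26.7%, 21.3% to 33%) and empty intestines 98 (45.2%, 38.7% to 51.8%). The intervals cover counting error only, and zeros of 1 library are not independent of each other.

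The excess in the empty intestines lay in 2 libraries. Empty library 30 was at 0 for 45 of the selected genes and empty library 19 for 31, together 76 zeros or 35.0% of all. This share was 25% (14 of 56 zeros) with a median of at least 50, and 18.4% (51 of 277) with up to 3 reads counted as missing. The other 4 empty intestines had 1, 4, 4 and 13, which lies within the range of 1 to 15 over the other 23 libraries. Protein libraries had from 1 to 9 (median 3.5), lipid libraries from 3 to 9 (median 6), cellulose libraries from 4 to 15 (median 7) and empty intestines from 1 to 45 (median 8.5), so the ranges of the 4 treatments overlapped. When the selection was repeated on the 23 libraries without empty 19 and 30, 113 genes met it, and their 152 zeros fell to 19.1% on protein, 24.3% on lipid, 41.4% on cellulose and 15.1% on empty intestines. These were 29, 37, 63 and 23 zeros, from 6 protein, 6 lipid, 7 cellulose and 4 empty libraries. The smallest share of the empty group thus came with the fewest libraries, and zeros per library were fewer with protein. The first place of the empty group rested on empty 19 and 30. Next after them stood cellulose library 27 with 15 zeros, empty library 26 with 13 and cellulose library 31 with 11.

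**Figure D1:**
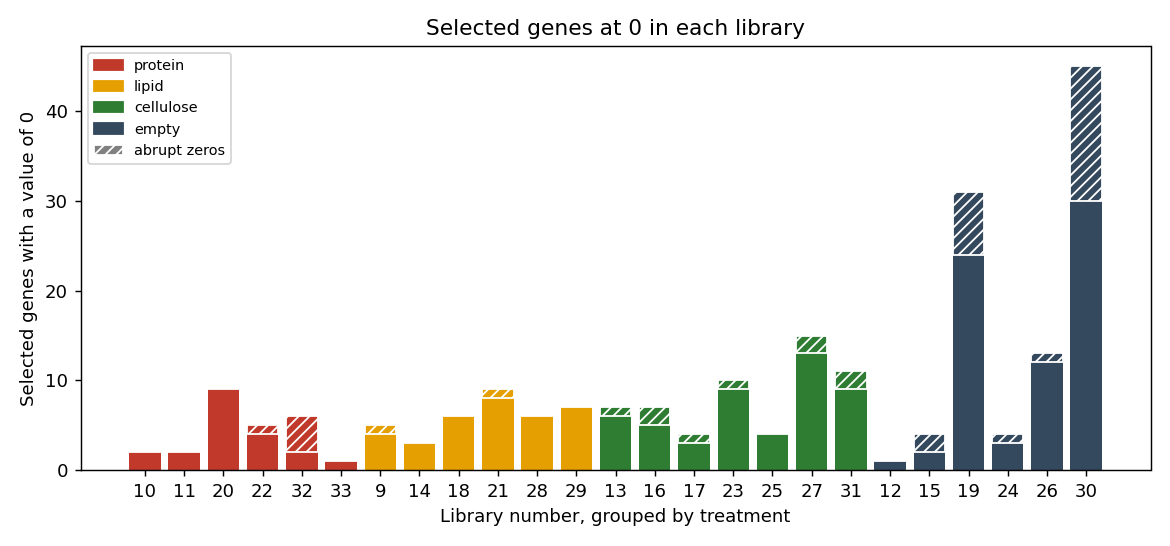
Number of the 165 selected genes with a deposited value of 0 in each library, grouped and coloured by treatment; the hatched part marks abrupt zeros, where the lowest value above 0 of the gene is at least 25% of the median of its libraries above 0. Empty libraries 30 and 19 reach 45 and 31, and the other 23 lie between 1 and 15.

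Empty libraries 30 and 19 were of ordinary depth, with 13.9 M and 13.4 M reads. They stood apart in the whole table too, with 1003 and 803 genes at 0 against 89 to 659 in the others. In the 2448 genes with a median from 20 to 50 that were not selected, the SD of the log2 ratio to the median of the gene was 0.983 in empty 30 and 0.982 in empty 19, against 0.624 to 0.895 in the other libraries. Of all genes with a median of at least 20, 103 in empty 30 and 97 in empty 19 were under 10% of their median, against 30 to 80 elsewhere. These include the genes at 0. Without them 52 genes in empty 30 and 65 in empty 19 were under 10%. Both lay within the range of 22 to 78 in the other 23 libraries but well above their median of 30. Only 3 of those 23 libraries were above empty 30. Genes over 10 times their median were not more frequent, with 11 and 3 against 3 to 15. What set these 2 libraries apart was not tested, and neither the labels nor the study's methods mark them.

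The zeros were set beside the other low counts of each library. Since the values of a library step by the worth of 1 read, genes could be sorted by their reads in each library. In empty library 30, 51 genes with a median of at least 20 had no read, 18 had 1 read and 12 had 2. Empty library 19 had 32, 20 and 12 when its step, which lay close to 1, was taken as 1 read. Its step was 0.991 and that of lipid 21 was 1.01, and the values were whole multiples of these steps within 0.1 reads. Because rounding to whole numbers gives a step of 1, both libraries were left out of the tests on reads as a precaution. Their values were not all whole numbers, as with 433.099 for LABE_00094357-RA in empty 19. In 20 of the 25 libraries more of these genes had no read than had 1. The median of the other 23 libraries was 10 genes with no read, 8 with 1 and 7 with 2. Genes with 1 read were also more frequent in empty 30 and 19 than in the others, which had at most 15. At 4 reads these 2 libraries had 24 and 25 genes, against at most 24, and at 2 and 3 reads they lay within the range of the others. Whether the zeros were more than the end of a run of low counts was not tested.

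**Figure D2:**
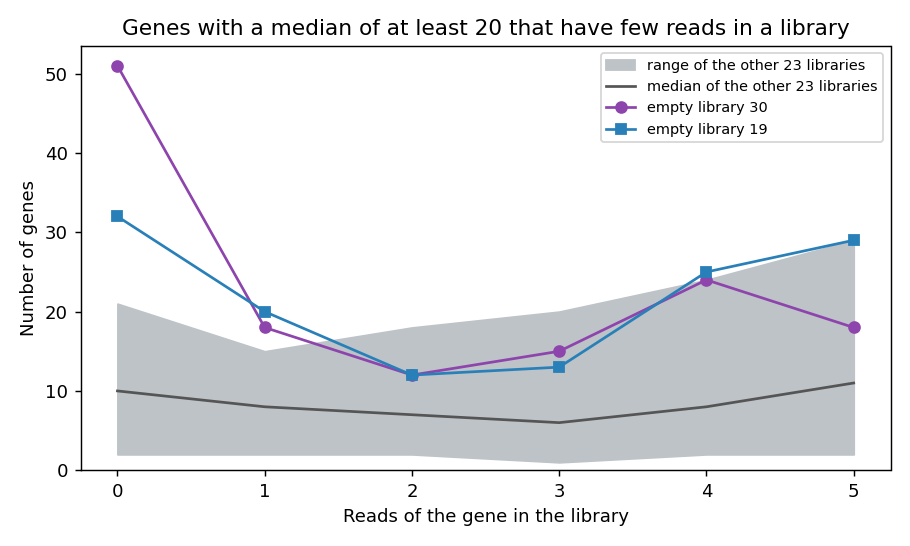
Number of genes with a median of at least 20 (vertical axis) that had 0 to 5 reads (horizontal axis) in empty library 30, in empty library 19 and in the other 23 libraries, whose range is shaded and whose median is a line. At 0 reads empty 30 has 51 genes and empty 19 has 32, against at most 21 elsewhere. The reads of empty 19 rest on taking its step as 1 read.

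Had a selected gene been at the median of its libraries above 0, it would have had at least 16.2 reads in each library that listed it at 0, and a median of 31.4 reads over the genes. Set against a floor of 3 reads in the library at 0, the other libraries were at least 5.39-fold higher at the median level for every selected gene. The median of these lower bounds was 10.5-fold and the largest was 1258-fold. The bounds cover counting error only.

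The values above 0 divided the genes into those with an abrupt zero and those with a graded one. A zero was called abrupt where the lowest value above 0 was at least 25% of the median of the libraries above 0, so that the gene had no low library besides those at 0. There were 35 genes with abrupt zeros and 130 with graded ones. Over all 165 the lowest value above 0 was at a median of 10.1% of that level, from 0.0583% to 65.0%. In 85 genes no library other than those at 0 fell under 10% of the median, in 80 at least 1 other library did, and in 25 of them 5 or more libraries were under it, counting those at 0, with a maximum of 11. The line at 25% is arbitrary, as 83 genes would be abrupt at 10% and 4 at 50%.

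Away from their zeros the selected genes varied more than others of like level. The SD of log2 values over the libraries above 0 had a median of 1.16 in the selected genes, and 1.05 in those with a median under 50. In the 2436 genes with a median from 20 to 50 and no zero it was 0.58. Genes with abrupt zeros had a median SD of 0.66 and those with graded zeros 1.33. The conditions on the zeros and on the median favour variable genes, so this is a description and no test was made.

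**Figure D3:**
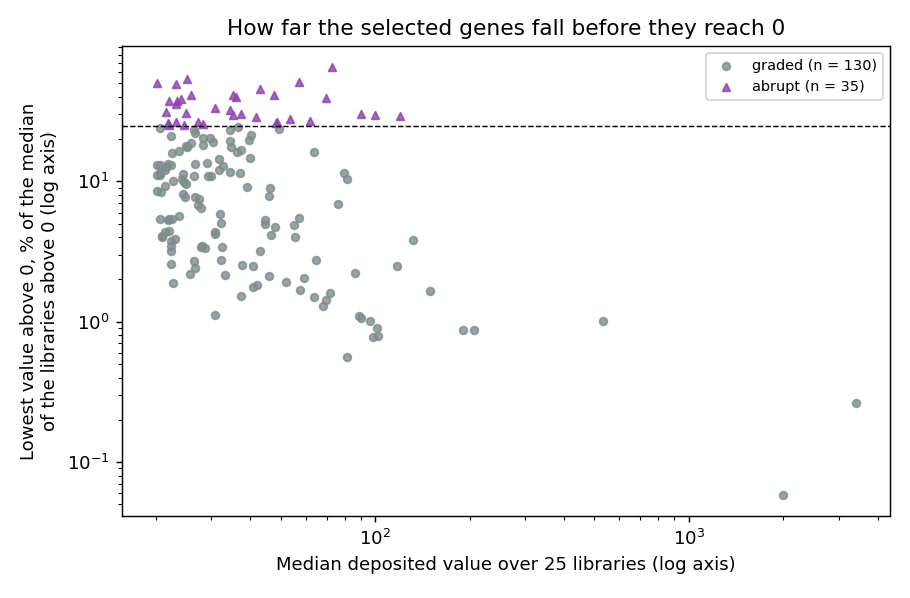
Lowest value above 0 of each selected gene, as a percentage of the median of its libraries above 0, against its median over the 25 libraries, both on log axes. The 35 genes above the dashed line at 25% have abrupt zeros, the 130 below it graded ones, and the 2 highest medians belong to genes with graded zeros.

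Abrupt zeros were concentrated in the same 2 empty intestines. Of 42 abrupt zeros, 22 (52.4%) lay in empty 19 or 30, against 54 of 175 graded zeros (30.9%). The treatments held 5 abrupt zeros with protein, 2 with lipid, 9 with cellulose and 26 with empty intestines. Outside empty 19 and 30 the 4 other empty intestines had 4.

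The sharpest abrupt zero was that of LABE_00087098-RA, whose lowest value above 0 was 65.0% of the level of its other libraries. Its lowest, median and highest values were 48.8, 66.7 and 183 with protein, 48.4, 57.5 and 88.8 with lipid, 48.6, 88.7 and 127 with cellulose and 0, 57.9 and 94.3 in empty intestines. The 0 was in empty library 19, and the other 5 empty intestines had 58.8, 56.9, 91.3, 52.9 and 94.3. Empty 19 thus lay at least 25.1-fold below the usual level of this gene, while the other 24 libraries stayed within a range from 48.4 to 183. Empty library 30, which lost the most genes, had the highest value of its group.

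LABE_00043470-RA also had an abrupt loss, with zeros in both empty 19 and empty 30. Its lowest, median and highest values were 20.7, 23.3 and 27.3 with protein, 16, 23.5 and 34 with lipid, 13.9, 25.1 and 45.2 with cellulose and 0, 14 and 32.4 in empty intestines. The 4 empty intestines with reads had 32.4, 16.4, 25.2 and 11.6, all within the range of the protein, lipid and cellulose libraries or just under it. The gene was at least 7.88-fold lower in the libraries at 0 than at its usual level. It was named from the genes at 0 in empty 19 and 30, so its difference from empty intestines is given as a description. Cellulose exceeded empty intestines by 1.75 on the log2 scale (0.62 standard error; limma, unadjusted p = 0.00952 and adjusted p = 0.924), and without empty 19 and 30 the difference was 0.29 (unadjusted p = 0.342).

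Genes with graded zeros included the most abundant of the set. LABE_00075838-RA had the highest median, 3399.5, and was at 0 in empty library 24. It was also low in protein 11 (11.7), protein 33 (9.27), cellulose 27 (15.5) and empty 12 (12.7). In the other 20 libraries it ran from 842 to 8616, and no library lay between 15.5 and 842. Its lowest, median and highest values were 9.27, 1424 and 3399.5 with protein, 842, 2462 and 6249.9 with lipid, 15.5, 6239 and 7065 with cellulose and 0, 4429 and 8616 in empty intestines. The libraries thus formed a low set of 5 and a high set of 20, and each treatment other than lipid had libraries in both.

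LABE_00068288-RA had the second highest median, 1999, and the widest gap of all selected genes. It was at 0 in empty 30, at 1.19 in cellulose 27, at 2.56 in protein 22 and at 3.24 in protein 33, while the other 21 libraries ran from 883 to 2782. The lowest of the high libraries was 272-fold above the highest of the low ones. Lowest, median and highest values were 2.56, 1281 and 2782 with protein, 1211, 2195 and 2485 with lipid, 1.19, 2338 and 2738 with cellulose and 0, 1245 and 2768 in empty intestines. The low sets of the 2 most abundant genes shared protein 33 and cellulose 27 and differed in the rest. For neither gene did any of the 5 comparisons between treatments reach an unadjusted p under 0.01 with limma.

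Such wide gaps were looked for in all 165 genes after these values had been seen. A gap of more than 3 on the log2(value + 1) scale, with 1 library below it, was found in 33 genes. In 12 genes from 2 to 5 libraries lay below it. The low libraries of these 12 genes fell in 1 treatment for 3 genes, in 2 for 4 and in 3 for 5. By treatment the low sets held 10 protein, 1 lipid, 9 cellulose and 15 empty libraries, and 5 of the 12 genes had empty 19 or 30 among them. LABE_00094357-RA was one of them, with at most 1.96 in protein 20, cellulose 17, empty 12 and empty 30 and from 135 to 478 in the other 21 libraries. LABE_00083590-RA had at most 15.1 in protein 10, protein 22, lipid 21 and cellulose 31, and from 175 to 1829 elsewhere. A further gene, LABE_00077277-RA, had its widest gap, 3.78 on the same scale, near the top of its range, with 20 libraries at no more than 120.5 and 5 at 1662 or more.

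**Figure D4:**
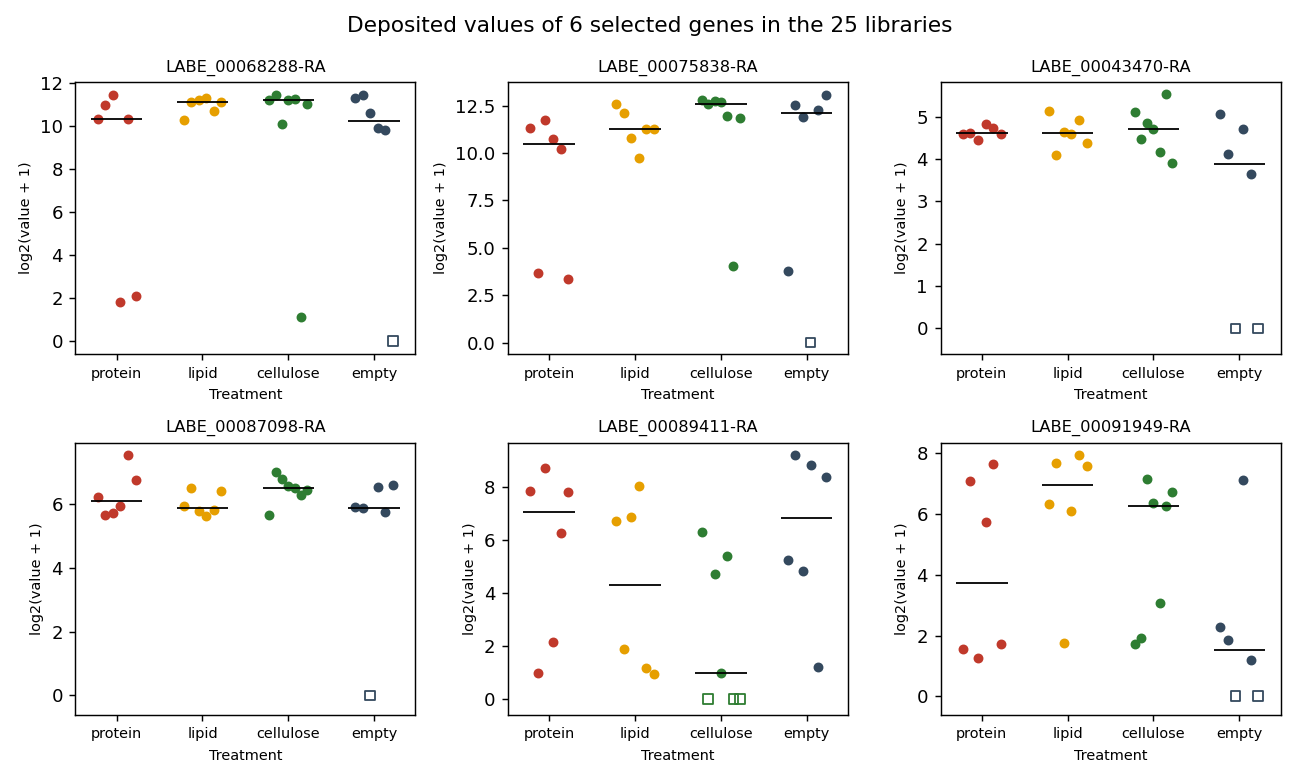
Deposited values, as log2(value + 1), of 6 selected genes in each library by treatment; open squares mark a value of 0 and the bar is the median of the treatment. LABE_00068288-RA and LABE_00075838-RA fall into a low and a high set of libraries, and LABE_00043470-RA and LABE_00087098-RA are at a narrow level apart from their zeros. LABE_00089411-RA and LABE_00091949-RA have low and high libraries in every treatment, with narrower gaps. No library lies between 3.41 and 25.4 in LABE_00089411-RA or between 7.33 and 52.0 in LABE_00091949-RA.

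Genes whose zeros lay in 1 treatment were mostly genes with a single zero. The zeros of 16 genes were confined to protein, of 21 to lipid, of 28 to cellulose and of 69 to empty intestines, but only 1, 0, 4 and 3 of them had more than 1 zero. For each treatment the gene with the most zeros there, and the higher median among equals, is described next. Each was picked by the treatment in which its zeros lay. Differences of that treatment from others, with their p-values, rest on the same zeros and are given as a description.

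With protein, this gene was LABE_00070250-RA, at 0 in protein 10 and 20. The other 4 protein libraries had 247, 22.2, 63 and 68.1. Lowest, median and highest values were 42.4, 61.1 and 78.5 with lipid, 11.3, 85 and 258 with cellulose and 1.29, 38.7 and 274 in empty intestines. Within the protein group the values therefore covered nearly the range of all libraries, and empty 26, at 1.29, was almost as low as the libraries at 0. Protein and cellulose overlapped, with a difference of -2.03 on the log2 scale (1.15 standard error; limma, unadjusted p = 0.091).

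With lipid, it was LABE_00040148-RA, at 0 in lipid 21. The other 5 lipid libraries had 8.24, 142, 41.6, 250.3 and 33.1. Lowest, median and highest values were 5.12, 32.8 and 433 with protein, 25.5, 276 and 600.3 with cellulose and 32.6, 134 and 369 in empty intestines. Low values were found in protein libraries as well, and 2 of the 7 cellulose libraries, at 25.5 and 233, were within the lipid range. Lipid was below cellulose, at -3.05 on the log2 scale (1.10 standard error; limma, unadjusted p = 0.0108) and so was protein, at -2.77 (1.10 standard error; limma, unadjusted p = 0.0193). Neither passed an unadjusted p of 0.01, but the p for protein was 0.00353 without protein 32, 0.00624 without cellulose 13 and 0.00709 without lipid 21.

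With cellulose, LABE_00089411-RA was at 0 in cellulose 16, 27 and 31 and at 0.965 in cellulose 23. The other 3 cellulose libraries had 77.6, 25.4 and 41. Lowest, median and highest values were 0.977, 151 and 427 with protein, 0.895, 53.8 and 260.4 with lipid and 1.29, 185 and 591 in empty intestines. In all, 10 libraries were under 10% of the median, among them protein 11, protein 22, lipid 14, lipid 28, lipid 29 and empty 26. Cellulose was below empty intestines, at -3.81 on the log2 scale (1.67 standard error; limma, unadjusted p = 0.0327), which did not pass 0.01.

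In empty intestines, LABE_00091949-RA was at 0 in empty 19 and 30, and 3 further empty libraries had 3.92, 2.59 and 1.29, with 139 in empty 24. Lowest, median and highest values were 1.38, 27.2 and 197 with protein, 2.38, 136 and 244 with lipid and 2.32, 76.2 and 141 with cellulose. This gene was under 10% of its median in 11 libraries, the most of the set, and these included 3 protein, 1 lipid and 2 cellulose libraries. Lipid exceeded empty intestines by 4.16 on the log2 scale (1.44 standard error; limma, unadjusted p = 0.00817 and adjusted p = 0.987), and without empty 19 and 30 by 3.12 (unadjusted p = 0.0645). One empty library, at 139, was above the median of the lipid group.

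The question whether genes were lost together was first put to the 39 genes with 2 or 3 zeros. Their zeros made 34 different sets of libraries. Only 9 of the 39 genes shared their exact set with another gene, in 4 sets, and the largest shared set was empty 19 with empty 30, for 3 genes. Zeros of 8 genes lay within 1 treatment, of 26 in 2 treatments and of 5 in 3. Of the 65 pairs of zeros within a gene, 17 (26.2%) were of 1 treatment, where 66 of the 300 pairs of libraries (22%) are. Without empty 19 and 30, 10 of 38 pairs were.

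Most selected genes at 0 in either of the 2 libraries with the most zeros were not at 0 in both. Of the 45 genes at 0 in empty 30 and the 31 at 0 in empty 19, 4 were at 0 in both, which is 8.89% of the former and 12.9% of the latter. As many genes, 4, were at 0 in both cellulose 27 and empty 19, and 4 in both cellulose 27 and empty 26. The genes at 0 in empty 30 were at a median of 89.1% of their own median in empty 19, and those at 0 in empty 19 at 89.7% in empty 30. Across the other 24 libraries the genes missing in empty 30 stood at a median from 84.9% to 124% of their level. Those at 0 in empty 19 stood from 78.6% to 145%. The selection limits both the overlap and these levels, since genes with more zeros than it allows were left out beforehand. Among all genes with a median of at least 20, 51 were at 0 in empty 30 and 32 in empty 19. The rule thus removed few genes at 0 in these 2 libraries. How many of all these genes were at 0 in both libraries was not counted. Of the 165 selected genes 126 were at 0 in 1 library only, which keeps the overlap small. Whether the overlap differed from what the selection alone would give was not tested, so no conclusion is drawn from its size. Genes missing in some other libraries had a low median in another library. The 15 genes at 0 in cellulose 27 stood at a median of 17.3% of their level in empty 26, and the 13 at 0 in empty 26 at 16.5% in cellulose 27. The 7 genes at 0 in cellulose 16 stood at 4.84% in empty 26, and the 6 at 0 in lipid 18 at 7.67% in empty 15. Of the 16 libraries with at least 5 selected genes at 0, 9 had such a low point, under 25%, in another library. Each low point was picked as the lowest over 24 libraries. It rests on 6 to 15 genes, whose median can swing further than that of 45 or 31. Some of the low values are shared zeros, such as the 4 of cellulose 27 and empty 26.

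Across the other 24 libraries, the median Pearson correlation of log2 values between the genes missing in empty 30 was -0.01, and between those missing in empty 19 it was 0.003. It was higher for the genes missing in lipid 9, at 0.22, in empty 26, at 0.15, in cellulose 16, at 0.12, and in lipid 18, at 0.10, and over the 16 libraries with at least 5 such genes it ran from -0.07 to 0.22. Over all 13530 pairs of selected genes and 25 libraries the median was 0.004. There were 33 pairs with a correlation over 0.8, and all 33 shared a library at 0. When libraries at 0 for either gene were left out, 2 of these pairs remained over 0.6. The points of each correlation are the libraries, which the genes share, and the values are given as a description.

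A few genes did move together apart from their zeros. Over libraries in which both genes were above 0, 17 pairs among 17 genes had a correlation over 0.7. The largest linked group, found after the values were seen, had 9 genes with a median correlation of 0.64 over its 36 pairs, from 0.05 to 0.83. All 9 had graded zeros, and LABE_00089411-RA was one of them. LABE_00085314-RA was the most abundant, with a median of 71.9 and zeros in lipid 29, cellulose 23 and empty 26. LABE_00081534-RA, with a median of 69.6, was at 0 in cellulose 23 and 31.

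The low libraries of this group were mainly cellulose libraries, but not all of these. Its 16 zeros fell in 8 libraries, with 4 each in cellulose 23 and 31, 2 each in cellulose 27 and lipid 29, and 1 each in cellulose 16, lipid 9, empty 19 and empty 26. The median over the 9 genes, as a percentage of the median of each gene, was 2.59% in cellulose 23, 3.87% in cellulose 31, 5.43% in cellulose 27, 8.07% in lipid 29 and 17.7% in cellulose 16. It was 100% in cellulose 17, 138% in cellulose 13 and 258% in cellulose 25, and it reached 443% in protein 20 and 380% in lipid 18. Empty 30 was at 253% and empty 19 at 71.2%, so the group as a whole was not lost in the 2 libraries with the most zeros. Cellulose 27, 31 and 23, where it was lowest, came with many zeros of the selected genes, at 15, 11 and 10. These include the zeros of the group itself. A further 11 genes of the table outside the selection had a correlation over 0.8 with the group. As the group was chosen from these values, its difference between treatments was not tested.

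**Figure D5:**
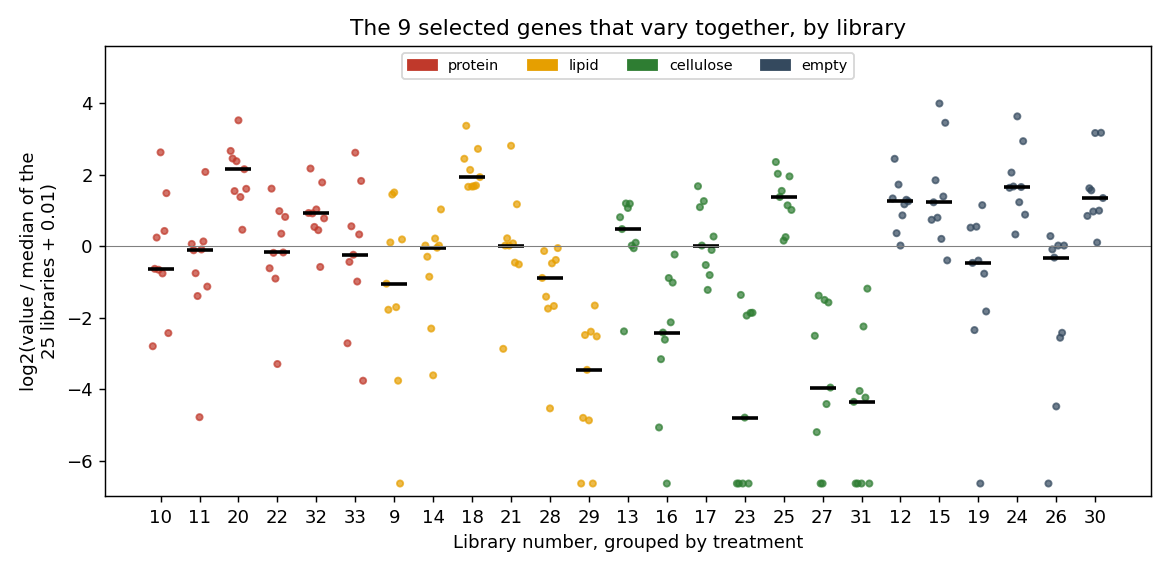
Values of the 9 selected genes that vary together, as log2 of the value over the median of the gene with 0.01 added, in each library; points are genes, coloured by treatment, and black bars are the median over the 9 genes. Cellulose 23, 27 and 31 and lipid 29 are lowest, while cellulose 13, 17 and 25 lie at or above the level of 0.

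Position in the annotation could be examined only through the identifier numbers. The identifier numbers of 4 pairs of selected genes were within 10 of each other, with correlations of 0.80, 0.66, -0.14 and -0.26. One of these pairs shared a library at 0, namely cellulose 16 for LABE_00068948-RA and LABE_00068952-RA. Identifier numbers are not coordinates, and the distance between such genes is not known here. The reverse pattern, a gene with a value of at least 20 in a set of libraries at 0 for a selected gene and 0 in all others, was found for 0 of the 20208 genes. Such a gene would be at 0 in nearly all libraries, while only 89 to 1003 listed genes were at 0 in a library. The paper also left out genes with low counts before normalization. The count therefore cannot decide whether the reverse pattern occurs.

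Differences between treatments were tested with limma on log2(value + 1), over the 19033 genes that exceeded a value of 10 in 5 or more libraries. All 165 selected genes passed this filter. Fold changes on this scale understate the change of low genes, and for genes with zeros they depend on the added 1. The selection used the values of all libraries but no treatment. A zero that met the selection also lowers the mean of its own treatment in these tests. Each count is therefore a description, given beside the share of all tested genes with an unadjusted p under 0.01.

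Few of the selected genes differed between nutrients and cellulose, or between cellulose and empty intestines. For protein versus cellulose 1 of the 165 genes (0.606%) had an unadjusted p under 0.01, where 2.72% of all genes tested did. For lipid versus cellulose it was also 1, lower with lipid, against 1.09% of all genes. Cellulose versus empty gave 2 genes (1.21%), both higher with cellulose, against 0.919%. The F test over the 4 treatments gave 2 genes (1.21%), against 1.6%. These shares were near those of all genes or below them.

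The gene of protein versus cellulose was LABE_00087620-RA, at 0 in protein 20. The other protein libraries had 107, 11.7, 9.38, 30.2 and 49.6. Lowest, median and highest values were 53.7, 83.3 and 208 with cellulose, 14.7, 71.6 and 141 with lipid and 12.1, 146 and 405 in empty intestines. All protein libraries but 1 were below the cellulose group. Protein was lower, at -2.65 on the log2 scale (0.87 standard error; limma, unadjusted p = 0.00555 and adjusted p = 0.345), and without protein 20 it was at -1.84 (unadjusted p = 0.0216). The p was also above 0.01 when protein 11 (0.0116), protein 22 (0.0132), cellulose 17 (0.012) or cellulose 25 (0.0122) was left out.

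Against empty intestines the counts were higher. For protein versus empty 6 of 165 genes (3.64%) had a p under 0.01, 4 higher and 2 lower with protein, against 2.77% of all genes. For lipid versus empty it was 6 (3.64%), again 4 higher and 2 lower, against 0.788%. Both comparisons share the empty libraries. In each, 3 of the 6 genes had a zero in empty 19 or 30, as did both genes of cellulose versus empty. The remaining gene higher with either nutrient was at 0 in empty 26. The genes lower with protein or lipid were at 0 in protein 20, protein 11 or lipid 9. Each gene counted thus had a zero in its lower group. As those zeros brought the genes into the selection, the counts are given as a description. Without empty 19 and 30 the counts were 2 for protein, 1 for lipid and 0 for cellulose versus empty. Of all genes tested, 1.52%, 0.851% and 0.657% then had such a p. When single libraries were left out in turn, the counts ran from 4 (without empty 19) to 10 (without empty 12) for protein, and from 2 (without lipid 29) to 9 (without empty 12) for lipid. The shares of all genes tested were 2.16%, 3.23%, 0.788% and 1.04% in the same order.

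The direction of the whole set against empty intestines turned with the same libraries. The genes were selected for zeros, and 98 of the 217 zeros lay in empty intestines. Medians above 0 against empty intestines thus follow at least in part from the selection and are given as a description. The median log2 fold change of the 165 genes was 0.37 for protein, 0.37 for lipid and 0.32 for cellulose versus empty, where the medians of all genes tested were 0.02, 0.00 and 0.01. Without empty 19 and 30 the medians of the selected genes were -0.04, -0.08 and -0.18. With their zeros treated as missing values they were -0.02, -0.04 and -0.05. Against cellulose, with the zeros kept and all libraries in the fit, they were 0.17 for protein and 0.05 for lipid, and with the zeros as missing values 0.04 and -0.02.

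After Benjamini-Hochberg adjustment over all genes, limma gave 0 selected genes with an adjusted p under 0.05 in any of the 6 tests. Over all 19033 genes it gave 3 for protein versus empty and 0 in the other 5 tests. The smallest adjusted p of a selected gene was 0.287, for protein versus empty, in LABE_00087779-RA. This gene had lowest, median and highest values of 0, 5.23 and 22.2 with protein and 10.7, 35.7 and 88.2 in empty intestines, so that the groups overlapped. Unadjusted limma p-values under 0.05 were found in 9 selected genes for protein versus cellulose, in 9 for lipid versus cellulose, in 17 for cellulose versus empty, in 18 for protein versus empty, in 17 for lipid versus empty and in 15 for the F test. Of the 19033 genes tested, 1943, 1124, 986, 1867, 902 and 1385 had such a p, in the same order. On the reads of 23 libraries edgeR gave 0 genes at an adjusted p under 0.05 in each of the 6 tests, and DESeq2 gave 1 for protein versus cellulose and 0 in the other 5. Those tests lacked empty 19 and lipid 21 and held empty 30.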

How the data were processed

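Reads were trimmed by the authors with Trim Galore 0.4.2, mapped with HISAT2, counted on genes with featureCounts and normalized for DESeq2. What the authors deposited is a normalized signal, in which the counts of each library are divided by its size factor. The paper names an Ensembl annotation, while the identifiers of the values belong to another one, which is not given in the sources used here. As 100% of the values in each library were whole multiples of its lowest value above 0 (within 0.1 reads), that value was taken as 1 read. In empty 19 and lipid 21 it was 0.991 and 1.01. As rounding to whole numbers gives a step of 1, these 2 libraries were left out of the tests on reads. This was a precaution, since their values were not all whole numbers.

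Libraries were grouped by the treatment label. The selected genes, the gene rule and the tests were chosen with earlier results of these data known. Genes named are the 2 of highest median, the one with the most zeros in each treatment, 2 of the most common set of zeros, the extremes of the lowest value above 0, the genes at the edge, and those of protein versus cellulose with an unadjusted p under 0.01 (up to 2 in each direction). LABE_00094357-RA, LABE_00083590-RA, LABE_00077277-RA, LABE_00089314-RA, LABE_00085314-RA, LABE_00081534-RA, LABE_00068948-RA and LABE_00068952-RA were named after their values were seen. The tests were limma 3.58.1 in R 4.3.3 (lmFit, eBayes with trend and robust moderation, 4 groups in 1 fit), with edgeR 4.0.16 (quasi-likelihood) and DESeq2 1.42.0 on 23 libraries as alternatives. The assumed unit had been open between counts and normalized values, and the test for the latter was used. All 3 were tried on simulated data before use. The other alternatives were pseudocounts of 0.1 and 5, no filter, a mean of at least 50, upper quartile and TMM scaling, non-robust moderation, only the groups compared, zeros as missing, other limits of the selection and leaving out each library. Leaving out empty 19 and 30 together was chosen after seeing the data.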

Additional observations from a re-analysis of the deposited data

Results flagged for a closer look

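In 60 sets of values, each 1 measure or 1 named gene in 1 treatment, 8 had a library that stood far from the rest of its treatment by Dixon's criterion. Chance flags about 1 set in 20 where values are normally distributed. The values of the genes were not on a log scale, so this rate need not hold for them. Protein library 33 had 31.6 M reads, next to 16.2 M in the second deepest of its treatment, and was at 0 for 1 selected gene. Protein library 20 had 308 genes at 0 in the whole table, next to 149, and cellulose library 27 had 659, next to 274. Empty libraries 30 and 19, with 1003 and 803, did not stand out by this criterion, since each is the neighbour of the other. Among the named genes, LABE_00070250-RA had 247 in protein 11, next to 68.1, and 258 in cellulose 25, next to 116. LABE_00040148-RA had 433 in protein 32, next to 85.3. LABE_00091949-RA had 139 in empty 24, next to 3.92. LABE_00013841-RA, the first gene outside the selection, had 57.5 in lipid 21, next to 26.8. No cause was tested for any of these.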

How the results depend on the processing

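A median of at least 50 left 39 genes, 8 of them with an abrupt zero, and 21.4% of the zeros in protein libraries. A median of at least 10 let 551 genes pass and up to 3 reads counted as missing let 433 pass, and the 200 of highest median were then taken. With up to 3 reads, 53 genes had an abrupt zero, and protein held 18.1% and empty intestines 33.6% of the zeros. Genes with an abrupt zero numbered 4 at a limit of 50% and 83 at 10%. Without empty 19 and 30 together (chosen after seeing the data), there were 18 genes with an abrupt zero and 5 genes with a shared set, and the shares of the zeros were 19.1% for protein, 24.3% for lipid, 41.4% for cellulose and 15.1% for empty intestines. These shares are of 6 protein, 6 lipid, 7 cellulose and 4 empty libraries and are not rates per library. With single libraries left out in turn, there were from 136 (without empty 30) to 170 genes and from 25 to 39 with an abrupt zero. Empty 19 and 30 together held 35.0% of the zeros, 25% with a median of at least 50 and 18.4% with up to 3 reads. With single libraries left out, the share of zeros ran from 8.45% to 14.0% for protein, from 12.6% to 21.3% for lipid, from 23.2% to 33.7% for cellulose and from 30.9% to 47.6% for empty intestines, where the lowest was without empty 30 and the next, 35.3%, without empty 19.

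The numbers of selected genes with an unadjusted p under 0.01 were small and moved with most settings. For protein versus cellulose, 1 by limma, it was 5 with only the 2 groups, 3 by edgeR, 4 by DESeq2, 4 by limma on the same 23 libraries, 3 with zeros as missing and 3 without empty 19 and 30. For lipid versus cellulose, 1 by limma, it was 0 with a pseudocount of 0.1, with a mean of at least 50, with TMM scaling, by edgeR and by limma on 23 libraries, 2 with only the 2 groups, 3 with a pseudocount of 5, without robust moderation, with zeros as missing and without empty 19 and 30, and 4 by DESeq2. For cellulose versus empty, 2 by limma, it was 0 with a mean of at least 50 and without empty 19 and 30, 1 by edgeR and 5 by DESeq2. For protein versus empty, 6 by limma, it was 0 by edgeR, 2 with a mean of at least 50, with only the 2 groups, by DESeq2 and without empty 19 and 30, and 3 by limma on 23 libraries and with zeros as missing. For lipid versus empty, 6 by limma, it was 0 by edgeR, 1 without empty 19 and 30, and 2 with a pseudocount of 0.1, with a mean of at least 50, with only the 2 groups, by DESeq2, by limma on 23 libraries and with zeros as missing. The F test, 2 by limma, gave 0 with a mean of at least 50, by edgeR and by limma on 23 libraries, 1 with a pseudocount of 0.1, and 4 with a pseudocount of 5 and by DESeq2. Of all genes tested, 1.6% had such a p by limma, 1.66% by edgeR and 3.17% by DESeq2. The filter on the mean leaves 58 of the 165 genes, and the cause was not tested for the other settings. The share of all genes tested with such a p also moved. For protein versus cellulose that share was 2.72% by limma, 3.73% with 2 groups, 3.59% by edgeR and 4.82% by DESeq2. In the same order it was 1.09%, 1.52%, 0.652% and 0.972% for lipid versus cellulose. It was 0.919%, 0.783%, 0.883% and 1.38% for cellulose versus empty. For protein versus empty it was 2.77%, 1.61%, 2.43% and 3.36%. For lipid versus empty it was 0.788%, 0.541%, 0.615% and 1.06%. With single libraries left out, the counts were from 0 to 3 genes for protein versus cellulose, 0 to 3 for lipid versus cellulose, 1 to 6 for cellulose versus empty (6 without cellulose 25), 4 to 10 for protein versus empty, 2 to 9 for lipid versus empty and 1 to 7 for the F test (7 without empty 15). No paired analysis was possible, because each library has its own number and the labels give no matching of samples between treatments. The change of LABE_00087620-RA with protein kept its sign in all fits and had an unadjusted p of 0.025 by edgeR and 0.0161 by DESeq2. Depth limits the set at its lower end, where a gene at a median of 20 rests on few reads.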
